A study of Homo sapiens with 6 samples.

Results

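A set of 10 genes for heat shock chaperones that act on the androgen receptor, and for their regulator, was followed by name through the RNA sequencing of parental and enzalutamide-resistant LNCaP cells. The genes encode the cytosolic HSP90 proteins (HSP90AA1, HSP90AB1), the constitutive and inducible HSP70 proteins (HSPA8, HSPA1A, HSPA1B), the J-domain proteins DNAJA1 and DNAJB1, the small heat shock protein HSPB1, the HSP90-binding immunophilin FKBP4, and the transcription factor HSF1. All 10 were among the 35554 genes of the count table, and all 10 were among the 19711 genes with enough counts to be tested. LNCaP is an established androgen-dependent prostate cancer line grown from a metastasis. Parental LNCaP cells (n = 3 libraries) were compared with LNCaP-enzaR (n = 3 libraries), a derivative selected from LNCaP by continuous culture in enzalutamide, which blocks the androgen receptor, and later kept on a lower concentration. Each line was 1 selection and culture history, the libraries came from flasks harvested below confluence, and from the labels it is not known if enzalutamide was present at harvest. The sample titles call the libraries biological replicates and the labels give triplicate flasks, whereas the RNA sequencing methods of the study, written for cells treated with ligands, give triplicate wells. Neither source says whether the triplicates came from separate passages, and p-values measure only the spread between these cultures. The study set both lines side by side to ask about ErbB receptors in enzalutamide resistance, and the chaperones were measured in the same libraries.

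Steroid receptors without hormone are held by chaperones in a form that can bind ligand. In the textbook cycle, a J-domain protein (HSP40) delivers the receptor to HSP70, the adaptor HOP passes it on to an HSP90 dimer, and p23 and an immunophilin such as FKBP4 (FKBP52) or FKBP5 (FKBP51) complete the mature complex. Many of these genes are also targets of HSF1, which is held inactive by chaperones and, when proteins unfold, binds heat shock elements built from GAA units in alternating orientation.

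Of the 10 genes, 2 were past the threshold (edgeR quasi-likelihood test, adjusted p no higher than 0.05 with a change of 1.5-fold or more), beside 42.7% of all genes tested. Both were higher in LNCaP-enzaR, HSPA1B by 1.55-fold and HSPA1A by 1.84-fold, beside 23.3% of all genes that were higher, and none was lower, beside 19.5%. A further 4 had an adjusted p of at most 0.05 with a smaller fold: HSPB1, HSPA8 and DNAJA1 were lower and DNAJB1 was higher. Counted by adjusted p alone, 3 members were higher, beside 33.5% of all genes, and 3 were lower, beside 32.8%. HSP90AB1 and FKBP4 had an adjusted p above 0.05, as did HSP90AA1 and HSF1, whose side of that limit depended on the setting or on 1 library. In both directions together 6 of 10 were called so, beside 66.3% of all genes. For 7 members no parental library lay within the range of LNCaP-enzaR, beside 70.6% of all genes. The median log2 fold change was −0.02 over the 10 genes and 0.01 over all genes tested, and the median size of the change regardless of direction was 0.23 against 0.57. Chaperones are abundant, and among the 2151 genes averaging at least 100 CPM, a limit chosen after the values were seen, 33.4% were past the threshold and the median size was 0.40. Of the 9 members above that level, 1 was past the threshold. CPM are counts scaled to 1e+06 per library after TMM scaling.

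Libraries held 77759122 to 98616465 counts. LNCaP-enzaR replicate 1 stood apart from the other LNCaP-enzaR libraries, with a chi-square per degree of freedom of 28.2 and 35.6 against 6.97 between the others, so that results resting on it are also given without it. Mitochondrial transcripts took 6.72% to 7.06% of the counts in parental libraries and 14.7% to 15.5% in LNCaP-enzaR. The 9 prostate luminal markers read were all detected, with a summed 4237 to 4330.1 CPM in parental libraries and 3046 to 3344 CPM in LNCaP-enzaR. KRT8 was higher past the threshold in LNCaP-enzaR, beside 23.3% of all genes, while KLK3, KLK2, FOLH1 and HOXB13 were lower, beside 19.5%. The other markers read, KRT18 (log2 fold change 0.50), CDH1 (0.42), EPCAM (0.41) and TMPRSS2 (0.16), were higher by less than the fold limit. Markers of other cells were low in sum: 0.433 to 1.71 CPM for 3 basal, 0.0679 to 0.209 CPM for 4 immune, 3.93 to 6.10 CPM for 3 endothelial and 8.21 to 17.9 CPM for 5 fibroblast genes over the 6 libraries, with KRT5, TP63, PTPRC, CD3E, PECAM1 and CDH5 near 0 and VWF giving nearly all of the endothelial sum. Of 10 proliferation genes 9 were lower past the threshold in LNCaP-enzaR, beside 19.5% of all genes. CDK1 was also lower, by less than the fold limit (log2 fold change −0.54). The list summed to 581 to 641 CPM against 1766 to 1835 CPM in parental libraries. All 9 tested of 10 immediate early genes, FOS and EGR1 included, were higher past the threshold, beside 23.3% of all genes. Their list summed to 373 to 414 against 180 to 185 CPM. The part of these differences in the chaperone values was not tested. In bulk RNA, fewer cells of a kind and less RNA per cell cannot be told apart.

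The promoters of the genes are shown first. They were searched for letters that match paired GAA units of the heat shock element, and the near identity of HSPA1A and HSPA1B matters for their counts. RefSeq windows on GRCh38.p14, from 250 bases before to 50 bases after an annotated start, were at hand for 8 of the 10 genes (13 windows), not for FKBP4 and HSF1. Each line gives the 140 bases that end just before the start, 5′ to 3′ on the strand of the gene. Capitals mark GAANNTTC or TTCNNGAA, a pair of GAA units in opposite orientation. For a gene with several windows, the window with the most such pairs before the start was printed. HSPA1A is chr6:31815403-31815542 (+), HSPA1B chr6:31827598-31827737 (+), HSP90AA1 chr14:102087045-102087184 (−), DNAJB1 chr19:14518398-14518537 (−) and HSPA8 chr11:123062137-123062276 (−). The last 3 lie inside the annotated span of their gene, since other transcripts start further upstream.
HSPA1A: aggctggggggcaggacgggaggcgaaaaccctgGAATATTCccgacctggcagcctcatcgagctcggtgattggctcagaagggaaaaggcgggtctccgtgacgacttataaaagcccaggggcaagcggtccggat
HSPA1B: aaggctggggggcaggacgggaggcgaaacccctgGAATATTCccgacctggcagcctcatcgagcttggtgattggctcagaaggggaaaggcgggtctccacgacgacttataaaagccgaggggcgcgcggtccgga
HSP90AA1: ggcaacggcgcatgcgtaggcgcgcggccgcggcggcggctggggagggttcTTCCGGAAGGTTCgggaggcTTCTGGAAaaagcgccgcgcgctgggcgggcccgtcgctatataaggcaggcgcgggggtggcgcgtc
DNAJB1: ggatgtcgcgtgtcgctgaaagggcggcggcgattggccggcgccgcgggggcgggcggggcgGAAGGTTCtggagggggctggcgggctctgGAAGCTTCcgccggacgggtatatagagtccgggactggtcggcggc
HSPA8: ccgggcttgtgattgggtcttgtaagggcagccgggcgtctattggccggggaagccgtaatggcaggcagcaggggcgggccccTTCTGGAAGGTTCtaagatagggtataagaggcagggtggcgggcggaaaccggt

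Each of the 8 genes had such a pair within the 250 bases before a start, in 8 of the 13 windows, against 11.6% of the upstream parts of all 35116 RefSeq windows. Both pairs read the same on either strand, and where 3 GAA units follow one another the pairs overlap. A triple of units (GAANNTTC continued by NNGAA, or TTCNNGAA continued by NNTTC) lay upstream in HSP90AA1, HSP90AB1 and HSPA8, against 0.441% of all upstream parts, and in DNAJA1 it lay after the start. All HSP90AB1 pairs lay in its window at chr6:44247693-44247992, inside the annotated span of the gene, and its windows at earlier starts held none. The other HSP90AA1 window, at chr14:102139700-102139999, held none either. For DNAJB1, the window at chr19:14529222-14529521 held none, and that at chr19:14517888-14518187 held a pair only after the start. Over the 250 upstream bases, HSPA1A and HSPA1B were identical in 93.6% of 251 aligned columns, and their single pair began at −106 and −105 bases from the start. DNAJB1 held pairs from −77 and −47 bases, HSPA8 from −230, −225, −55 and −50, HSP90AA1 from −88, −83 and −68, and HSPB1 from −182 bases. Among these 8 genes, HSPA1A and HSPA1B, higher in LNCaP-enzaR, and the 6 that were not past the threshold each carried the pair. A match is a description of the letters and not of a bound site.

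**Figure D1:**
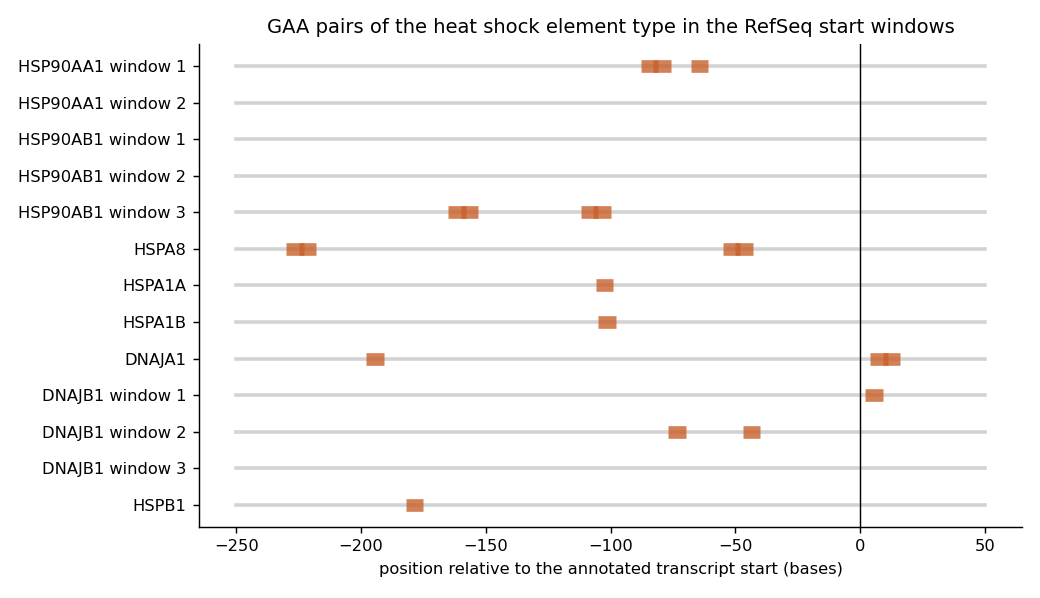
Positions of GAA pairs (orange boxes) along the RefSeq windows of 8 genes (gray lines, 250 bases before to 50 after the annotated start, x axis in bases from the start, black line at the start). HSPA1A and HSPA1B each hold 1 pair at almost the same place, and HSP90AA1, HSP90AB1, HSPA8 and DNAJA1 hold overlapping pairs.

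The stress-inducible HSP70 genes were the members higher past the threshold in LNCaP-enzaR, while DNAJB1 was higher by less than the fold limit. HSPA1A and HSPA1B lie close together on chromosome 6 and encode the same HSP70 protein, which binds exposed hydrophobic stretches of unfolding proteins. HSPA1B (ENSG00000204388.7, GRCh38 chromosome 6, 31827738 to 31830254, plus strand) was read at 84.6, 84.5 and 100.1 CPM in the parental libraries and at 147.8, 135.3 and 133.3 CPM in LNCaP-enzaR. Every LNCaP-enzaR library was above every parental library, and the lowest LNCaP-enzaR value stood well above the highest parental one. The means were 89.7 ± 8.97 and 139 ± 7.85 CPM (SD, n = 3 each), and the log2 fold change was 0.63 (edgeR SE 0.07, adjusted p 2.60e-06). The value lay close to the 1.5-fold limit, and it was 0.58, just under it, without parental replicate 1 or without parental replicate 2 (adjusted p 5.71e-05 and 5.06e-05), and 0.59 without LNCaP-enzaR replicate 1.

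HSPA1A (ENSG00000204389.10, chromosome 6, 31815543 to 31817946, plus strand) was far lower in counts, with 36, 47 and 49 counts in the parental libraries and 113, 61 and 80 in LNCaP-enzaR. In CPM these were 0.389, 0.517 and 0.624 against 1.31, 0.691 and 0.806. The groups did not overlap, but the gap between them was small and LNCaP-enzaR replicate 1 was the highest by far. The means were 0.510 ± 0.118 and 0.935 ± 0.329 CPM, and the log2 fold change was 0.88 (edgeR SE 0.30, adjusted p 0.0204). Leaving out LNCaP-enzaR replicate 1 gave 0.57 (edgeR adjusted p 0.149), and leaving out parental replicate 1 gave 0.71 (edgeR adjusted p 0.0808). Over the 6 libraries, the genes with the pattern most like that of HSPA1A, by the Euclidean distance of centered log2 CPM among 10760 genes, were PDLIM2 (0.375), MINCR (0.397) and H2BC12 (0.443).

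The copies share sequence, and the authors' treatment of reads that fit several places is not stated. Of the 150-base windows in annotated HSPA1A transcripts, 65.3% also occurred in HSPA1B, and 66.1% of those of HSPA1B occurred in HSPA1A, while no such window of the other 8 members occurred in another gene. HSPA1A took 0.458%, 0.608% and 0.619% of the counts of the pair in parental libraries and 0.878%, 0.508% and 0.601% in LNCaP-enzaR, a difference within the spread (two-sided exact permutation test, p = 0.60). The split between the copies is therefore uncertain. The sum does not depend on the split, but its level would be too low if reads that fit both copies were left out. Summed, the pair gave 85.0, 85.0 and 100.7 CPM in parental libraries and 149.1, 135.9 and 134.1 CPM in LNCaP-enzaR, with a log2 fold change of 0.63 (edgeR SE 0.07, adjusted p 2.71e-06). A further 36.6% of the exonic bases of HSPA1B lay in exons of a gene listed as ENSG00000285565 in GENCODE v44.

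HSPA8 (ENSG00000109971.14, chromosome 11, 123057489 to 123063230, minus strand), the constitutive HSP70 of the cytosol, was lower in LNCaP-enzaR by less than the fold limit. It was read at 3189, 3012 and 3025 CPM in parental libraries and at 2519, 2540.2 and 2603 CPM in LNCaP-enzaR. All parental libraries were above all LNCaP-enzaR libraries. The means were 3075 ± 98.9 and 2554 ± 43.5 CPM, a log2 fold change of −0.27 (edgeR SE 0.05, adjusted p 2.43e-04), which is 1.20-fold and under the fold limit. In its exons, 15.1% of the bases overlap other genes.

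Within the HSP70 trio the balance could be read without any scaling between libraries. HSPA8 gave 97.4%, 97.3% and 96.8% of the counts of HSPA8, HSPA1A and HSPA1B in parental libraries and 94.4%, 94.9% and 95.1% in LNCaP-enzaR. The share was lower in each LNCaP-enzaR library, by 2.33 percentage points on average (97.1 ± 0.327% against 94.8 ± 0.356%), with p = 0.10 in a two-sided exact permutation test, the smallest p that 3 against 3 libraries allow. With counts divided by exon length the difference was −4.18 percentage points. HSPA8 provided nearly all counted HSP70 reads of the trio in both lines. If reads that fit both HSPA1 copies were left out of the counts, which is not stated, this share would be too high.

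**Figure D2:**
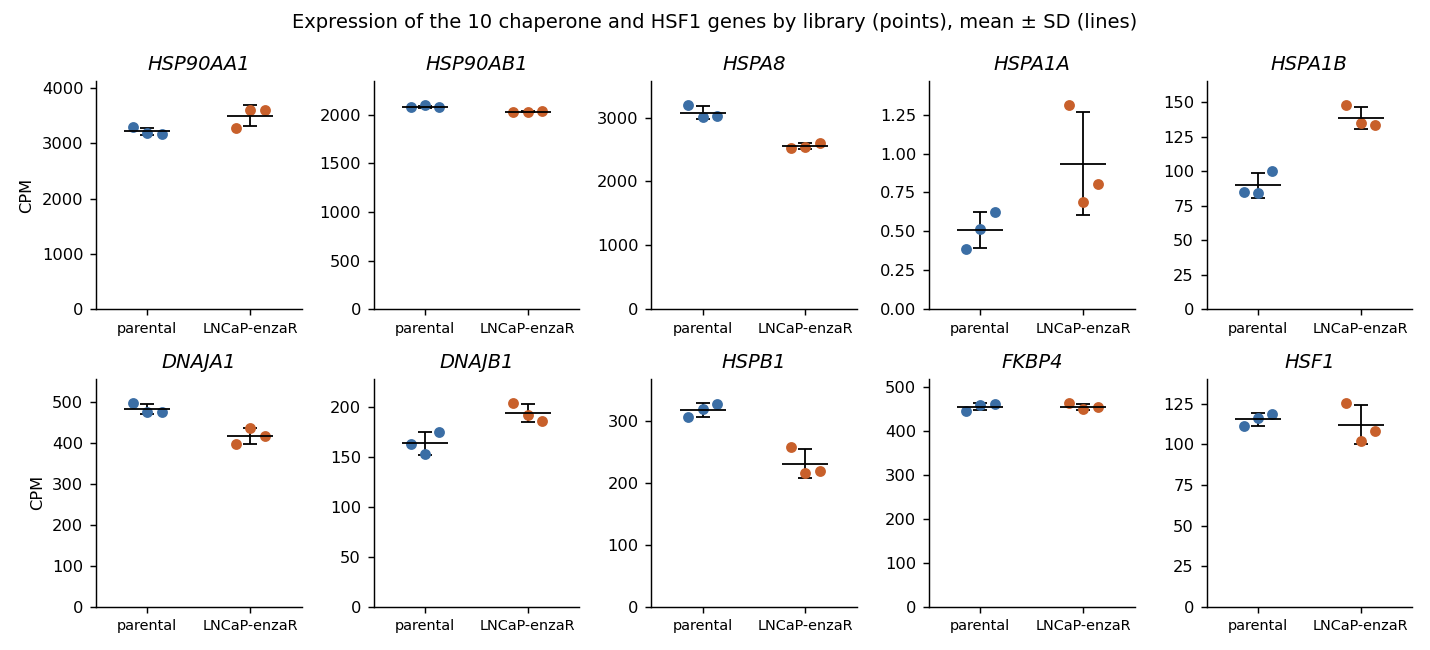
Expression of the 10 genes in CPM (y axis, linear from 0) in each of the 3 parental (blue) and 3 LNCaP-enzaR libraries (orange), with mean ± SD as black lines. HSPA1B separated most clearly upward (89.7 against 139 CPM) and HSPB1 downward (317 against 231 CPM), while FKBP4 and HSF1 overlapped.

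The HSP90 genes, whose proteins hold the receptor in its hormone-binding form, were among the most abundant of the members and differed little between the lines. HSP90AA1 (ENSG00000080824.19, chromosome 14, 102080742 to 102139699, minus strand), the more stress-inducible of the pair, was read at 3286, 3184 and 3174 CPM in parental libraries and at 3280.3, 3609 and 3600.3 CPM in LNCaP-enzaR. LNCaP-enzaR replicates 2 and 3 were above all parental libraries, whereas replicate 1 fell within the parental range. The means were 3215 ± 61.8 and 3496 ± 187 CPM, and the log2 fold change of 0.12 (SE 0.05) had an edgeR adjusted p of 0.0581. Leaving out LNCaP-enzaR replicate 1 gave 0.17 (edgeR adjusted p 7.84e-05), and the adjusted p was also under 0.05 with DESeq2 (0.0426), RLE size factors (0.0444), upper-quartile scaling (0.00215), the minimum of 10 counts per library (0.0290) and protein-coding genes only (0.0284). In the other alternatives it was above 0.05, up to 0.195, and the fold change stayed between 0.09 and 0.22 throughout. By the same distance, the patterns most like that of HSP90AA1 were those of ZBED9 (0.0271), ELOVL6 (0.0403) and NDFIP1 (0.0419).

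HSP90AB1 (ENSG00000096384.20, chromosome 6, 44246166 to 44253888, plus strand), the constitutive partner, was read at 2079, 2097 and 2078 CPM in parental libraries and at 2030.0, 2032 and 2042 CPM in LNCaP-enzaR. The libraries of each line were so close to one another that the groups did not overlap, yet the means of 2085 ± 10.5 and 2035 ± 6.44 CPM were almost the same. The log2 fold change was −0.04 (edgeR SE 0.05, adjusted p 0.530), and it turned to 0.07 with upper-quartile scaling.

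HSP90AA1 made up 61.2%, 60.3% and 60.4% of the counts of the HSP90 pair in parental libraries and 61.8%, 64.0% and 63.8% in LNCaP-enzaR. Each LNCaP-enzaR library was above each parental one, and replicate 1 was again the nearest to the parental range. The difference of 2.53 percentage points (60.7 ± 0.514% against 63.2 ± 1.23%) had p = 0.10 in the exact permutation test, the smallest possible. Taken over all 10 members, the share of all counts was 1.01 ± 0.0180% in parental cells and 0.952 ± 0.0370% in LNCaP-enzaR (two-sided exact permutation test, p = 0.10). The direction turned when the mitochondrial counts were left out of the total, an alternative chosen after seeing the data, with shares of 1.09 ± 0.0177% for parental and 1.121 ± 0.0441% for LNCaP-enzaR libraries (two-sided exact permutation test, p = 0.40).

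The J-domain proteins, which stimulate the ATPase of HSP70 and hand substrates to it, went in opposite directions by small amounts. DNAJA1 (ENSG00000086061.16, chromosome 9, 33025273 to 33039907, plus strand) was read at 498, 478 and 477 CPM in parental libraries and at 398, 438 and 419 CPM in LNCaP-enzaR, all below the parental values. The means were 484 ± 12.0 and 418 ± 20.03 CPM, a log2 fold change of −0.21 (edgeR SE 0.05, adjusted p 0.00295), and with upper-quartile scaling the adjusted p was 0.0831. DNAJB1 (ENSG00000132002.9, chromosome 19, 14514769 to 14560391, minus strand), the stress-inducible HSP40, was read at 163, 153 and 176 CPM in parental libraries and at 204, 193 and 186 CPM in LNCaP-enzaR. All LNCaP-enzaR libraries were above the parental ones, with means of 164 ± 11.5 and 194 ± 9.28 CPM and a log2 fold change of 0.25 (edgeR SE 0.06, adjusted p 0.00305). Neither gene reached the fold limit.

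HSPB1 (HSP27, ENSG00000106211.10, chromosome 7, 76302673 to 76304295, plus strand), a small heat shock protein that keeps unfolding proteins in solution without ATP, had the lowest log2 fold change of the 10 and did not reach the fold limit. It was read at 305, 319 and 327 CPM in parental libraries and at 258, 216 and 219 CPM in LNCaP-enzaR. No LNCaP-enzaR library reached the parental range, and replicate 1 was the nearest to it. The means were 317 ± 11.04 and 231 ± 23.6 CPM, which is 1.37-fold lower, with a log2 fold change of −0.46 (edgeR SE 0.07, adjusted p 3.50e-05).

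FKBP4 (ENSG00000004478.8, chromosome 12, 2794970 to 2805423, plus strand), the HSP90-bound immunophilin that favors receptor activity, was nearly the same in both lines. It was read at 446, 459.7 and 462 CPM in parental libraries and at 464, 451 and 455 CPM in LNCaP-enzaR, and the groups overlapped. The means were 456 ± 8.23 and 457 ± 6.88 CPM, with a log2 fold change of 0.0023 (edgeR SE 0.05, adjusted p 0.970). The sign of so small a value turned with library totals in place of TMM (−0.03) and without parental replicate 1 (−0.02). The competing immunophilin FKBP5, which the androgen receptor induces, was read at 259.6, 259.9 and 271 CPM in parental libraries and at 51.6, 57.5 and 56.7 CPM in LNCaP-enzaR. All LNCaP-enzaR libraries lay far below, and the log2 fold change was −2.25 (edgeR SE 0.06, adjusted p 6.16e-13). Counts of FKBP4 per count of FKBP5, a ratio chosen after the values were seen, went from 1.72, 1.77 and 1.70 in parental libraries to 8.99, 7.84 and 8.02 in LNCaP-enzaR (two-sided exact permutation test, p = 0.10, the smallest possible). Since FKBP4 was nearly the same in both lines, the ratio restates the fall of FKBP5, and its test adds no separate result. Some 11.4% of the exonic bases of FKBP4 overlap an antisense gene, and the strand setting of the authors' counting is not stated.

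**Figure D3:**
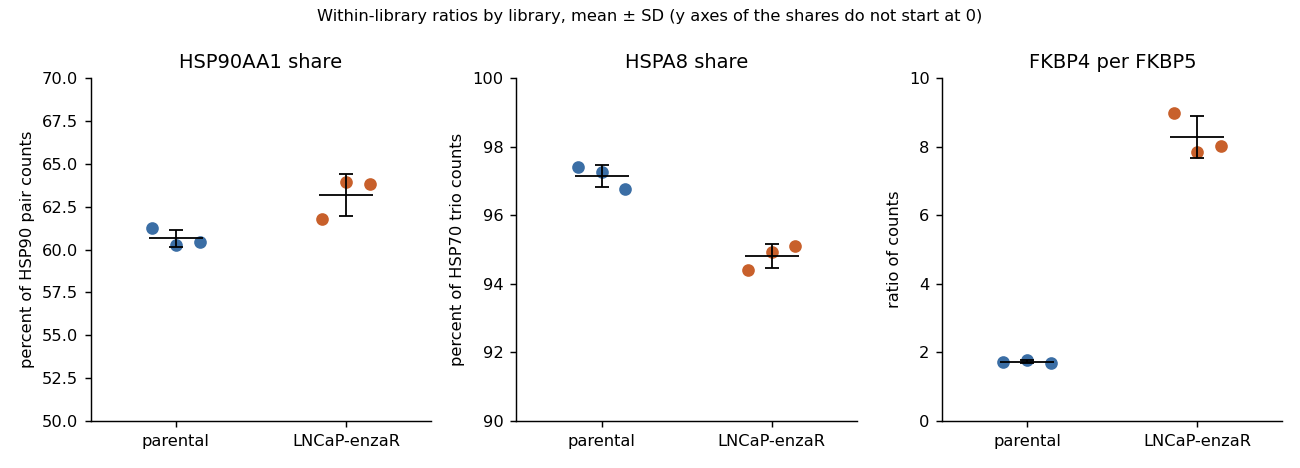
Within-library ratios in 3 parental (blue) and 3 LNCaP-enzaR libraries (orange), with mean ± SD. The percentage of HSP90AA1 in the HSP90 pair (left, axis from 50) was 60.7 against 63.2, that of HSPA8 in the HSP70 trio (middle, axis from 90) 97.1 against 94.8, and the ratio of FKBP4 to FKBP5 counts (right, axis from 0) 1.73 against 8.28.

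HSF1 (ENSG00000185122.11, chromosome 8, 144291591 to 144314720, plus strand), the master transcription factor of the heat shock response, was read at 111, 116 and 119 CPM in parental libraries and at 125, 102 and 109 CPM in LNCaP-enzaR. The LNCaP-enzaR libraries fell on both sides of the parental range, with replicate 1 the highest of the 6. The means were 116 ± 3.86 and 112 ± 12.0 CPM (log2 fold change −0.04, edgeR SE 0.07, adjusted p 0.612). Without LNCaP-enzaR replicate 1 the value was −0.12 with an adjusted p of 0.0126, without LNCaP-enzaR replicate 2 it was 0.02, and upper-quartile scaling gave 0.06.

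**Figure D4:**
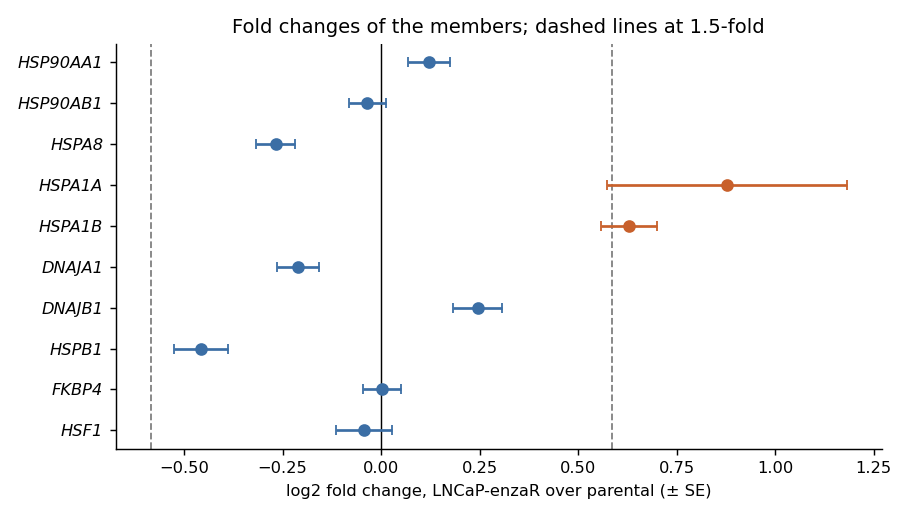
Log2 fold change of the 10 genes (x axis, LNCaP-enzaR over parental, bars are the standard error of the edgeR fit), with dashed lines at 1.5-fold. Orange marks HSPA1A (0.88) and HSPA1B (0.63), which were past the threshold, and blue the other 8, from −0.46 for HSPB1 to 0.25 for DNAJB1.

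Per kilobase of annotated exon, the members spanned a wide range in level. The length used merges the exons of all annotated transcripts of a gene (HSP90AA1 5.097, HSP90AB1 2.98 and DNAJB1 8.188 kilobases). Which transcripts were expressed was not determined, so the order depends on this choice of length. By CPM alone, HSP90AA1 was above HSP90AB1 in parental cells (3215 against 2085 CPM), and DNAJB1 (164 CPM) was above HSPA1B (89.7 CPM). In parental cells HSP90AB1 was the highest with 699.6 ± 3.51 CPM per kilobase, followed by HSPA8 (634 ± 20.4) and HSP90AA1 (631 ± 12.1), whose libraries overlapped. HSPB1 (195 ± 6.80), DNAJA1 (181 ± 4.49), FKBP4 (88.3 ± 1.59) and HSPA1B (35.7 ± 3.56) followed without overlap between neighbors. HSF1 (21.8 ± 0.728) and DNAJB1 (20.02 ± 1.40) overlapped, and HSPA1A was last with 0.212 ± 0.0489 CPM per kilobase. In LNCaP-enzaR, HSP90AA1 (686 ± 36.7) and HSP90AB1 (683 ± 2.16) were level with each other and above HSPA8 (527 ± 8.98). DNAJA1 (157 ± 7.51) overlapped HSPB1 (142 ± 14.5), and DNAJB1 (23.7 ± 1.13) overlapped HSF1 (21.1 ± 2.26).

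HSP90 co-chaperones bind HSP90 to set the pace of its cycle or the choice of its clients. Of 24 co-chaperones other than the members, 7 fell (FNIP2, FKBP5, CHORDC1, PTGES3, STIP1, SUGT1, CACYBP), 3 rose (CDC37L1, UNC45A, STUB1) and 14 did not pass the threshold. The 10 called of 24 were close to the 42.7% of all genes (19.5% lower and 23.3% higher), with a median log2 fold change of −0.26 against 0.01 over all genes tested. STIP1 (HOP), which links HSP70 to HSP90, was 556 ± 9.04 CPM in parental cells and 318 ± 14.9 CPM in LNCaP-enzaR (log2 fold change −0.81, edgeR adjusted p 6.25e-09). PTGES3 (p23), which stabilizes the closed HSP90 dimer on the receptor, was 715 ± 31.2 and 379 ± 27.9 CPM (−0.92, edgeR adjusted p 8.76e-09). CHORDC1, an HSP90-binding protein, was 191 ± 6.95 and 45.4 ± 4.78 CPM (−2.07), and FNIP2, an HSP90 co-chaperone and partner of folliculin, was 53.3 ± 1.60 and 8.36 ± 0.467 CPM (−2.67). STUB1 (CHIP), the ubiquitin ligase that removes HSP70 and HSP90 clients, was 80.3 ± 5.55 and 124 ± 14.2 CPM (0.62, edgeR adjusted p 7.35e-06), with 42.5% of its exonic bases in exons of another gene, and it was 0.53 and under the fold limit without LNCaP-enzaR replicate 1. The kinase adaptor CDC37 (−0.38) and the ATPase activator AHSA1 (−0.29) did not reach the fold limit.

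Partners of HSP70 went both ways. In the list of 17 further HSP70 family members and nucleotide exchange factors, 5 rose (HSPA4L, HSPA12A, HSPA12B, HSPA6, HSPA1L), 3 fell (HSPA13, HSPA14, HSPBP1) and 9 did not pass. The 8 called of 17 were likewise near the 42.7% of all genes, and the median log2 fold change was 0.03. HSPA6, which is almost silent without stress, was 0.763 ± 0.109 CPM in parental cells and 1.33 ± 0.178 CPM in LNCaP-enzaR (0.80, edgeR adjusted p 0.00506). HSPA4L, an HSP110 relative, was 24.3 ± 1.90 and 55.6 ± 5.31 CPM (1.20), HSPA12A 21.9 ± 0.553 and 37.2 ± 1.65 CPM (0.77), and HSPA13, of the endoplasmic reticulum, 62.2 ± 2.50 and 35.7 ± 4.37 CPM (−0.80). The exchange factors HSPH1 (259.6 ± 9.27 and 187 ± 19.6 CPM, −0.47) and BAG3 (105 ± 4.69 and 129 ± 8.11 CPM, 0.30) did not reach the fold limit.

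Among 17 further J-domain proteins, 2 rose (DNAJC6, DNAJB2), 3 fell (DNAJC9, DNAJA4, DNAJC2) and 12 did not pass, so that 5 of 17 were called beside 42.7% of all genes, with a median of 0.03. DNAJA4 fell at a low level, from 0.744 ± 0.226 to 0.371 ± 0.162 CPM. DNAJC6 (auxilin), which uncoats clathrin vesicles with HSPA8, was 3.26 ± 0.349 and 15.9 ± 1.37 CPM (log2 fold change 2.29, edgeR adjusted p 1.55e-10), and DNAJB2 was 54.8 ± 1.75 and 92.6 ± 7.49 CPM (0.76). DNAJC9, a histone chaperone, was 47.9 ± 3.01 and 26.6 ± 1.75 CPM (−0.85), with 56.5% of its exonic bases in exons of a gene on the opposite strand.

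The small heat shock proteins besides HSPB1 were low in parental cells, with a summed 1.63 to 2.18 CPM. Of 4 tested, HSPB8 and CRYAB rose, HSPB6 fell at a level under 1 CPM and HSPB9 did not pass, which is 3 called of 4 beside 42.7% of all genes. HSPB8, which works with BAG3 in chaperone-assisted autophagy, was read at 0.951, 0.857 and 1.31 CPM in parental libraries and at 22.2, 23.5 and 23.5 CPM in LNCaP-enzaR (log2 fold change 4.48, edgeR SE 0.13, adjusted p 1.04e-12). CRYAB was 0.329 ± 0.0877 and 4.96 ± 0.762 CPM (3.91, edgeR adjusted p 6.57e-10) and is named after its values were seen. Even so, HSPB1 at 231 CPM remained the most abundant small heat shock protein measured in LNCaP-enzaR, where the summed level of the others was 28.0 to 28.8 CPM.

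Known heat-inducible HSF1 targets outside the 10 genes went both ways. Of 19 tested, 4 rose (HSPB8, CRYAB, HSPA4L, HSPA6), 6 fell (CHORDC1, HSPE1, HSPD1, STIP1, MRPL18, CACYBP) and 9 did not pass. These were 10 called of 19 beside 42.7% of all genes. The 4 that rose stood beside 23.3%, and the 6 that fell beside 19.5%. The median log2 fold change was −0.11. By summed level the list was lower in LNCaP-enzaR, with 2831 to 2892 CPM against 4307 to 4362 CPM, and HSPD1 alone gave 1706 and 906 CPM of it on average. Of 4 tested heat shock factors and binding proteins besides HSF1, 1 fell, beside 19.5% of all genes. This was HSBP1L1 (20.4 ± 0.762 and 10.2 ± 1.19 CPM, −0.996), while HSF2 (−0.42) and HSBP1 (−0.36) did not reach the fold limit.

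Among chaperones of other compartments and subunits of the chaperonin and prefoldin, none rose past the threshold. Of 8 mitochondrial and endoplasmic reticulum chaperones, 4 fell, beside 19.5% of all genes, and none rose, beside 23.3% (median −0.47): HSP90B1 (GRP94), the HSP90 of the endoplasmic reticulum, with 1859 ± 82.5 and 507 ± 40.4 CPM (−1.87, edgeR adjusted p 7.37e-12), HSPA5 (BiP) with 2036 ± 152 and 974 ± 15.7 CPM (−1.06), HSPD1 (HSP60) with 1706 ± 30.2 and 906 ± 22.7 CPM (−0.91), and HSPE1 (HSP10) with 97.3 ± 2.33 and 40.2 ± 2.61 CPM (−1.28). The mitochondrial HSP90 and HSP70, TRAP1 (0.06) and HSPA9 (0.08), were similar in both lines. Of 14 subunits of the TRiC chaperonin and of prefoldin, 4 fell (TCP1, PFDN2, CCT2, PFDN5), beside 19.5% of all genes, 10 did not pass and the median was −0.40. PFDN5 was low, at 1.28 ± 0.0654 and 0.733 ± 0.150 CPM, with 37.3% of its exonic bases in exons of other genes. TCP1 was 668 ± 18.3 and 336 ± 15.9 CPM (−0.99), PFDN2 108 ± 4.17 and 59.3 ± 5.99 CPM (−0.86), and CCT2 412 ± 13.6 and 273 ± 2.37 CPM (−0.59), the last close to the fold limit. In the other direction, CCT7 (352 ± 3.96 and 466 ± 14.9 CPM, 0.41) and CCT4 (0.25) were higher by less than the fold limit. The remaining subunits that did not pass had log2 fold changes below 0, down to −0.55 for CCT5.

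**Figure D5:**
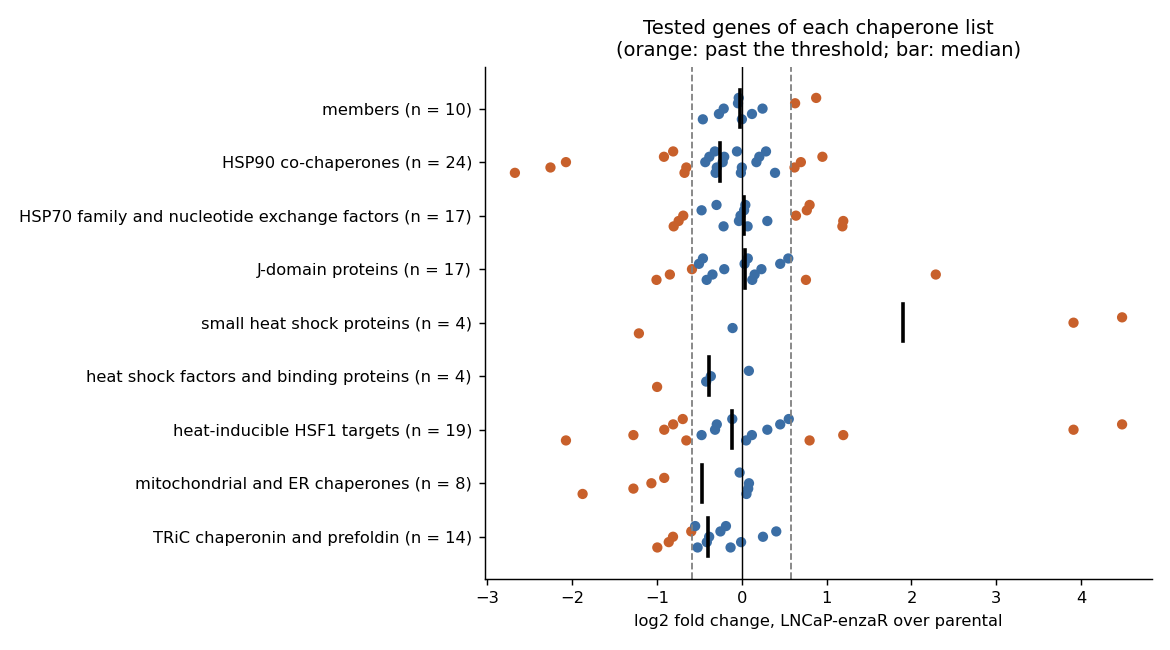
Log2 fold change (x axis, LNCaP-enzaR over parental) of every tested gene in the 10 members and 8 lists of related chaperones and heat shock factors, with orange points past the threshold, black bars at the medians and dashed lines at 1.5-fold. The members lie near 0 (median −0.02), the co-chaperones reach −2.67 for FNIP2, and HSPB8 is the highest at 4.48.

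Other steroid receptors that HSP90 holds were low in these cells. Of 5 in the list, NR3C2 (mineralocorticoid receptor) and ESR1 (estrogen receptor) rose, beside 23.3% of all genes, and 3 did not pass. NR3C2 was 10.3 ± 0.547 and 15.7 ± 0.641 CPM (0.62, edgeR adjusted p 8.16e-06), and NR3C1 (glucocorticoid receptor) 0.251 ± 0.0592 and 0.388 ± 0.167 CPM (0.63, edgeR adjusted p 0.203). ESR1 had 0 counts in each parental library and 77 to 161 counts in LNCaP-enzaR, at least 34.3-fold higher when 3 counts are taken as the floor in each library, and it is named after its values were seen.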

How the data were processed

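Polyadenylated RNA of 3 parental and 3 LNCaP-enzaR libraries was sequenced by the authors, who trimmed reads with Cutadapt, aligned them to GRCh38 with STAR and GENCODE genes, and counted them with featureCounts. Raw counts, deposited for each gene and library without normalization, were the starting point. Nothing states the strand setting, the treatment of multimapping reads or the counting of fragments. Genes were picked by symbol. The 10 members and all lists were chosen with earlier results of these data known.

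Counts were tested with edgeR 4.0.16 in R 4.3.3 (filterByExpr, TMM, robust quasi-likelihood F-test, no covariates), with Benjamini-Hochberg adjustment over 19711 genes and, as in the study's methods, limits of 0.05 for the adjusted p and 1.5 for the fold. Values are CPM, mean ± SD. Libraries held 77759122 to 98616465 counts, and each member at least 7686 per library except HSPA1A (36 to 113), whose precision is limited by counting error. Shares were compared by two-sided exact permutation over libraries. Each list was described by counts and its median, with no set test. The genes named are the members, 8 set partners and, per list, the 3 with the smallest p past the threshold that averaged at least 5 CPM; others named were chosen after their values were seen.

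Exon lengths, overlaps and shared windows came from GENCODE v44, a later annotation of the same build that held 99.8% of the identifiers. COL1A2, CRYAA, HSPB2, HSPB3 and HSPB7 were not analysed here. A further luminal marker is not reported here. On counts simulated from these libraries (19223 genes), all 56 genes of at least 5 CPM changed by 1 on the log2 scale, and all 55 changed by 2, were recovered. Among changed genes of any level, 75 of 98 and 93 of 98 were recovered, and 7 unchanged genes were called. Few genes were changed in the simulation, whereas 42.7% of those tested passed the threshold in the data. Changes as small as those of the members were not simulated. Alternatives were DESeq2 1.42.0, RLE, library totals, upper-quartile scaling, no filter, a minimum of 10 counts per library, only protein-coding genes, no mitochondrial genes, summed HSPA1 copies, the replicate number as a block, each library left out, other thresholds and counts per kilobase for the shares.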

Additional observations from a re-analysis of the deposited data

How the results depend on the processing

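The 2 members past the threshold became 1 with the HSPA1 copies summed, 6 with no minimum fold and 0 at a fold of at least 2, and 0 to 2 when each library was left out (0 without parental replicate 1, 1 without parental replicate 2 or LNCaP-enzaR replicate 1). Over all genes the count of 8425 became 13074 with no minimum fold and 5561 at a fold of at least 2, and 8372 to 8517 with each library left out. HSPA1A ranged from 0.57 to 1.05 and HSPA1B from 0.58 to 0.71 on the log2 scale with each library left out. Directions turned for values near 0: HSP90AB1 to 0.0656 and HSF1 to 0.0572 with upper-quartile scaling, FKBP4 to −0.0322 with library totals. With each library left out FKBP4 ranged from −0.0176 to 0.0133 (−0.00238 without LNCaP-enzaR replicate 1) and HSF1 from −0.125 to 0.0202. Upper-quartile scaling moved the median of all genes by 0.10. The J-domain genes that fell numbered 3 in the main result and 1 to 3 with each library left out. The small heat shock proteins that fell went from 1 to 0 with no filter and with the replicate block, and 0 to 1 with each library left out. The steroid receptors that rose went from 2 to 1 under the minimum of 10 counts per library, and 1 to 2 with each library left out. The lower HSPA8 share was −4.18 percentage points per kilobase of exon, and −2.52 to −2.14 with each library left out. The share of the 10 members in all counts, −0.0597 percentage points, turned to 0.0345 without mitochondrial counts and was −0.0749 to −0.0391 with each library left out, both chosen after seeing the data.

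Of 25 named genes outside the members, 22 kept direction and side of the threshold in every alternative run. The others, STUB1, CCT2 and NR3C2, lie near the fold limit. Of the 10 members, 5 kept both in the same alternatives. Changed fold limits were not part of these counts. Replicate numbers did not pair the libraries (correlation of deviations −0.07 to −0.00041). A fit blocked on the replicate number called 8212 genes (8174 shared), and the members past it were again 2. With DESeq2 the count was 8321 (8279 shared). Depth limits HSPA1A, which had 36 to 113 counts per library. The unstated treatment of multimapping reads limits the split and the summed level of HSPA1A and HSPA1B, and with it the HSPA8 share.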
